A study of Mus musculus with 12 samples.

Results

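The nuclear genes that encode the subunits of the oxidative phosphorylation complexes were followed in C2C12 cells, an established mouse myoblast line that can differentiate into muscle. Members were taken by name as protein-coding genes: the Ndufa, Ndufb, Ndufc, Ndufs and Ndufv genes of complex I, Sdha to Sdhd of complex II, the Uqcr genes and Cyc1 of complex III, Cycs for cytochrome c, the Cox4i, Cox5, Cox6, Cox7 and Cox8 genes of complex IV, and the Atp5 genes of complex V without Atp5s and Atp5sl. This gave 86 of the 38481 genes with listed transcripts: 38 for complex I, 4 for complex II, 9 for complex III, 1 for cytochrome c, 18 for complex IV and 16 for complex V. Cells carried siRNA for 3 days and then received rapamycin at 20 nM or its ethanol vehicle for 12 h, and RNA was read from stranded total RNA libraries. The 4 groups of 3 libraries were Renilla luciferase siRNA in ethanol (Luc ethanol), the same siRNA in rapamycin (Luc rapamycin), Crebl2 siRNA in ethanol (Crebl2 ethanol) and Crebl2 siRNA in rapamycin (Crebl2 rapamycin). Every group was therefore transfected, and the labels name a single siRNA sequence against Crebl2. Whether replicates are separate cultures is not in the labels, and the p-values below describe the spread among libraries, which may be technical.

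The respiratory chain passes electrons from NADH, through complex I, or from succinate, through complex II, to ubiquinone and on through complex III, cytochrome c and complex IV to oxygen. Complexes I, III and IV pump protons, and complex V, the ATP synthase, uses the proton gradient to make ATP. Most subunits are encoded in the nucleus and imported, a few core ones are encoded by mitochondrial DNA, and muscle fibres carry their own isoforms of several complex IV subunits. The design crosses the loss of Crebl2, a small basic leucine zipper protein related to the CREB factors, with rapamycin, which inhibits the growth kinase complex mTORC1, and the series' design text names what Crebl2 does in the transcriptional answer to rapamycin as the question.

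The deposited counts were made per transcript, and reads lying over several listed transcripts are missing from them. The countable share of a gene is the percentage of its exonic bases that belong to a single listed transcript. It was at least 90% for 46 members, and it was below 10% for members such as Ndufv1, Cox4i1, Cox7a2l, Atp5g1 and Atp5g3, whose counts are uncertain. Members named below with a share under 90% include Ndufb2 (89.7%), Ndufab1 (88.4%), Ndufv3 (75.9%), Sdhc (74.3%), Cox7c (71.7%), Ndufa5 (64.0%) and Cox6b1 (42.7%). Their counts come from part of the gene only. Of the 86 members, 73 passed the filter on low counts and were tested, 44 of them with a countable share of at least 90%. The 13 others were Ndufa4, Ndufa4l2, Ndufs5, Ndufv1, Cox4i1, Cox4i2, Cox6b2, Cox7a1, Cox7a2l, Cox8c, Atp5c1, Atp5g3 and Atp5j2. Cox4i1, a main subunit of complex IV, thus had no read in any library at a countable share of 2.6%, and its absence from the counts says nothing about its RNA. Mitochondrially encoded subunits had no reads either. Sequence shared with other genes makes further counts uncertain: of the 50-base words of Cox5b, Atp5f1, Cox7c, Atp5o, Ndufs6 and Cox6a1, 25.9%, 23.2%, 23%, 19.1%, 14.6% and 12.3% also occur in another gene.

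**Figure D1:**
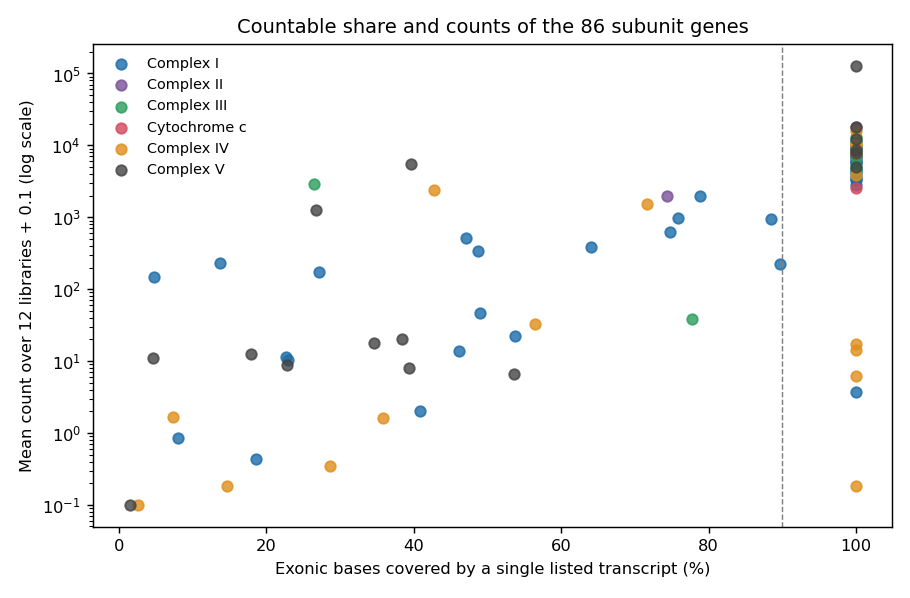
Each point is 1 of the 86 subunit genes, with its countable share in percent on the horizontal axis and its mean count over the 12 libraries plus 0.1 on a logarithmic vertical axis; the dashed line marks 90%. Counts run from 0 upward at low countable shares, and 41 of the 46 genes right of the line have a mean of at least 5 CPM.

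Totals ranged from 33404087 to 42891015 counts per library, and the common biological coefficient of variation was 6.9%. Crebl2 itself stood at 23.8, 25.3 and 26.2 CPM in Luc ethanol, 40.0, 36.4 and 36.3 in Luc rapamycin, 4.87, 7.41 and 6.02 in Crebl2 ethanol and 10.7, 8.97 and 9.49 in Crebl2 rapamycin, where CPM is the count scaled to library size after TMM normalisation. Its log2 fold change with the Crebl2 siRNA was -2.05 ± 0.11 (SE) in ethanol and -1.95 ± 0.11 in rapamycin, with edgeR adjusted p values of 3.7e-09 and 3.6e-09, so the level of the target went with the siRNA labels. It checks no rapamycin or ethanol label. Summed over 5 myoblast markers, libraries held 2192 to 2923 CPM, whereas 3 endothelial markers summed to at most 0.27 CPM and 3 macrophage markers to at most 0.028 CPM, with Ptprc and Adgre1 at 0. The 10 markers of differentiating muscle (7 of them tested) summed to 533.9 to 689.5 CPM in Luc ethanol, 198.8 to 235.8 in Luc rapamycin, 72.7 to 89.5 in Crebl2 ethanol and 44.7 to 56.0 in Crebl2 rapamycin. The 5 fibroblast or mesenchymal markers summed to 9718 to 12156 CPM, with Postn at 0, and the 4 adipocyte markers to at most 1.62 CPM, with Cidec at 0. The 4 neural markers, with Rbfox3 at 0, summed to 290.8 to 354.5 CPM with the Luc siRNA and to 825.6 to 948.8 CPM with the Crebl2 siRNA. Their part in the subunit results below was not tested. In bulk RNA, fewer cells of a type and less RNA per cell cannot be told apart.

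Over all 73 tested members, more subunit genes fell than rose with rapamycin, and more rose than fell with the siRNA in rapamycin, mostly by small amounts. With the Crebl2 siRNA in ethanol, 15 members rose and 10 fell, while 21.4% of all 13247 tested genes rose and 17% fell. In rapamycin the siRNA raised 23 members and lowered 4, against a background of 16.3% and 16.8%. Rapamycin lowered 35 members and raised 3 with the Luc siRNA, where 21.6% of all genes fell and 19.5% rose. With the Crebl2 siRNA it lowered 28 and raised 5, against 25.6% and 19.7%. As shares of the 73, the risers were 20.5% and 31.5% for the siRNA and the fallers 47.9% and 38.4% for rapamycin, so the siRNA count in ethanol lay near its background. These calls rest on edgeR's quasi-likelihood test with Benjamini-Hochberg adjustment over all genes, at an adjusted p under 0.05. Median log2 fold changes of the members were 0.05 and 0.11 for the siRNA in ethanol and in rapamycin, and -0.19 and -0.17 for rapamycin with the Luc and the Crebl2 siRNA. The medians over all tested genes were 0.01, -0.01, 0.02 and -0.01. Among called members the median size of the log2 fold change was 0.22 for the siRNA in rapamycin, against 0.38 over all called genes, and 0.34 and 0.32 for rapamycin with the Luc and the Crebl2 siRNA, against 0.43 and 0.47. At most 3 members in a comparison moved by more than 2-fold.

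Restricting the counts to members with a countable share of at least 90% left the lean for rapamycin and for the siRNA in rapamycin. Among these 44, the siRNA in ethanol raised 11 (25%) and lowered 6 (13.6%), against 25.5% and 17.6% of all such genes. Its counts in ethanol thus again lay near their background. In rapamycin it raised 18 (40.9%) and lowered 1 (2.27%), against 20% and 17.2%. Rapamycin lowered 27 (61.4%) and raised 2 (4.55%) with the Luc siRNA, against 23.8% and 22.2%. With the Crebl2 siRNA it lowered 19 (43.2%) and raised 3 (6.82%), against 27.6% and 22.3%. Over all 73 tested members, libraries of the compared groups did not overlap for 26 (35.6%; siRNA in ethanol) and 30 (41.1%; siRNA in rapamycin), below the 46.9% and 46% of all genes. They did not overlap for 39 (53.4%; rapamycin, Luc siRNA) and 34 (46.6%; rapamycin, Crebl2 siRNA), where the shares over all genes were 50.4% and 53.6%, so none of the 4 shares stood far above its background. Leaving out 1 library moved some of these counts: the 28 members lowered by rapamycin with the Crebl2 siRNA became 16 without replicate 1 and 15 without replicate 3 of Crebl2 rapamycin. The 5 raised there became 10 and 3 without replicates 1 and 2 of that group, and 9 and 8 without replicates 2 and 3 of Luc rapamycin. The 4 lowered by the siRNA in rapamycin became 2 without replicate 2 of Luc rapamycin or replicate 3 of Crebl2 rapamycin, and the 3 raised by rapamycin with the Luc siRNA became 1 without replicate 1 or 2 of Luc rapamycin.

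**Figure D2:**
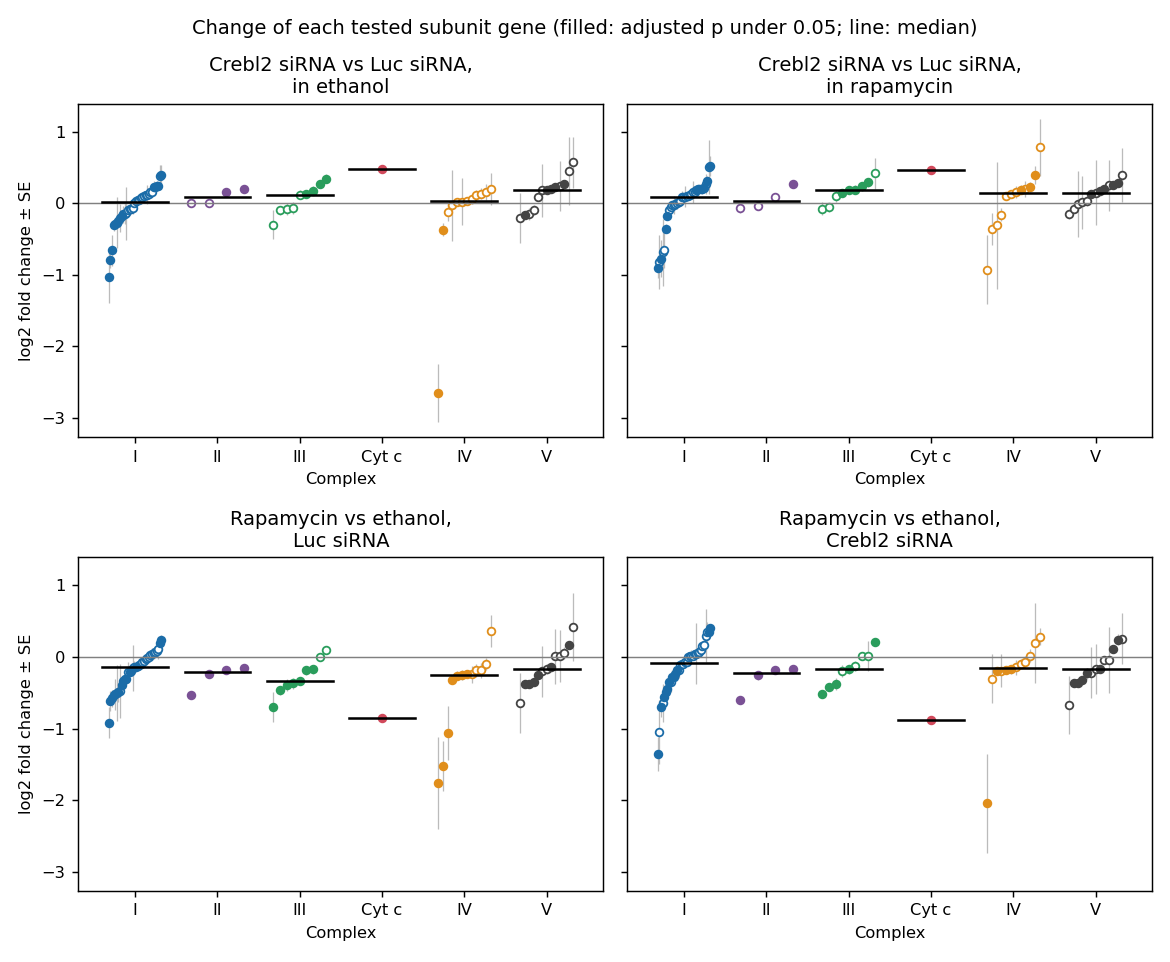
Each point is the log2 fold change of 1 tested subunit gene with its SE, in complexes I to V and cytochrome c (horizontal axis), for the 4 comparisons; filled points have an adjusted p under 0.05 and black lines are medians. In the lower panels, rapamycin against ethanol, the medians of every complex lie below 0, and cytochrome c lies at -0.86 and -0.87.

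RefSeq promoter windows on GRCm38.p6, each 300 bases from 250 before to 50 after the transcription start, were available for 69 of the 86 members. Stretches of them are shown because Crebl2 is related to the CREB factors and members with the same letters did not all move alike. The full cyclic AMP response element, TGACGTCA on either strand, stood in 6.76% of member windows and 1.79% of all 32851 windows, in the genes Cycs, Ndufa10, Ndufa11, Ndufb2 and Uqcrfs1. The NRF1 letters, GCGC and TGCGC with 1 base of any kind between them, on either strand, stood in 24.3% of member windows and 4.6% of all windows. Shares for the other letters searched, on both strands, were 36.5% and 20.8% for TGACG, the core of the response element that every full element holds too, 13.5% and 2.75% for AAGATGGC (YY1), 6.76% and 3.89% for CCGGAAGT (ETS) and 9.46% and 7.15% for CACGTG (E-box). Member windows had a median GC content of 57.5%, against 52.7% over all windows. The 3 NRF1 matches shown are examples from 17 member genes with these letters, and all 3 genes were lowered by rapamycin with either siRNA. The letters also stood in Ndufa6 and Atp5g2, which rose with rapamycin, and in Ndufa8 and Ndufa11, not called in any pairwise comparison. The stretches below are the 5 response elements and 3 NRF1 matches. They read 5′ to 3′ along the gene, with the matched letters in capitals, all of them upstream of the RefSeq start. Those of Ndufa10, Uqcrfs1, Ndufa5 and Ndufs6 lie inside the GENCODE M21 bounds of their genes, so the 2 annotations place the start differently.
Cycs: aggccagagggTGACGTCAcgcacgtccac
Ndufa10: acactcagtggTGACGTCAtggcagcgcgc
Ndufa11: tttacctttccTGACGTCAcgggcgtctct
Ndufb2: gtgcgacgcagTGACGTCAcgggccgggac
Uqcrfs1: cggcgtcgcgcTGACGTCAcaaaccctgcg
Sdhd: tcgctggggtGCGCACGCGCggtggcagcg
Ndufa5: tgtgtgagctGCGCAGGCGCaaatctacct
Ndufs6: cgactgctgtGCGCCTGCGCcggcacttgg

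These stretches lie at chr6:50566720-50566749 on the minus strand for Cycs, chr1:92473807-92473836 on the minus strand for Ndufa10 and chr17:56717593-56717622 on the plus strand for Ndufa11. Those of Ndufb2 (plus strand) and Uqcrfs1 (minus strand) lie at chr6:39592540-39592569 and chr13:30545327-30545356. The NRF1 stretches of Sdhd, Ndufa5 and Ndufs6, genes of the minus strand, lie at chr9:50603909-50603938, chr6:24527697-24527726 and chr13:73328479-73328508. Among the 5 genes with the full response element, the siRNA in ethanol raised Cycs and lowered Ndufb2, and Ndufa10, Ndufa11 and Uqcrfs1 were not called (log2 fold changes of 0.14 ± 0.06, 0.11 ± 0.07 and -0.10 ± 0.06). Rapamycin with the Luc siRNA lowered 3 of these 5, Cycs, Ndufb2 and Uqcrfs1, and raised Ndufa10 by 0.20 ± 0.06 (edgeR adjusted p = 0.0084). The Ndufa10 call was lost without replicate 1 (0.17) or replicate 2 (0.14) of Luc rapamycin, and the log2 fold change of Uqcrfs1 was -0.17 ± 0.06 (adjusted p = 0.046). Of the 14 tested members with NRF1 letters, the siRNA raised 5 in ethanol and 8 in rapamycin, and rapamycin lowered 8 with the Luc siRNA and 7 with the Crebl2 siRNA and raised 2 with each. Of the 46 tested members with a window and without these letters, the siRNA raised 7 and lowered 9 in ethanol and raised 11 and lowered 4 in rapamycin, and rapamycin lowered 21 and 17 and raised 1 and 3. Over all tested genes, the siRNA raised 21.4% in ethanol and 16.3% in rapamycin. Rapamycin lowered 21.6% of all genes with the Luc and 25.6% with the Crebl2 siRNA. Median log2 fold changes with and without the letters were 0.13 and 0.02 (siRNA in ethanol) and 0.18 and 0.11 (siRNA in rapamycin). For rapamycin they were close, at -0.18 and -0.22 with the Luc and -0.18 and -0.16 with the Crebl2 siRNA. A match describes the letters of the window and is no evidence of binding.

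In complex I, which takes electrons from NADH, members were called in both directions in every pairwise comparison. Rapamycin with the Luc siRNA lowered 11 of its 34 tested members and raised 2, with the Crebl2 siRNA it lowered 10 and raised 2, and the siRNA raised 4 and lowered 7 in ethanol and raised 8 and lowered 4 in rapamycin. The lowered shares with rapamycin, 32.4% and 29.4%, compare with 21.6% and 25.6% of all genes, and the raised shares with the siRNA, 11.8% and 23.5%, with 21.4% and 16.3%, so several of these counts lie near or below the background. Of the 18 with a countable share of at least 90%, rapamycin lowered 5 and raised 2 with the Luc siRNA and lowered 3 and raised 2 with the Crebl2 siRNA. The lowered shares, 27.8% and 16.7%, compare with 23.8% and 27.6% of all genes at that countable share. The raised share, 11.1% with each siRNA, compares with 22.2% and 22.3%. Among the 7 core subunits that hold the flavin or iron-sulfur centres or bind ubiquinone, 6 were tested but only Ndufs3 and Ndufs8 had a countable share of at least 90%. Rapamycin with the Luc siRNA lowered these 2, by 0.19 ± 0.05 for Ndufs3 and 0.34 ± 0.06 for Ndufs8 on the log2 scale. With the Crebl2 siRNA the values were -0.10 ± 0.05 for Ndufs3 (edgeR adjusted p = 0.16) and -0.35 ± 0.06 for Ndufs8 (adjusted p = 0.00019), and the siRNA called neither in ethanol or rapamycin. Ndufs3 shares 35.8% of its 50-base words with 2 other genes, so its counts are uncertain.

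Ndufab1, the mitochondrial acyl carrier protein that is also a complex I subunit, stood at 26.7, 27.5 and 27.3 CPM in Luc ethanol, 20.5, 17.9 and 18.1 in Luc rapamycin, 31.5, 30.5 and 34.1 in Crebl2 ethanol and 23.4, 20.5 and 21.3 in Crebl2 rapamycin. Every rapamycin library was below every ethanol library, Crebl2 ethanol stood above Luc ethanol, and the 2 rapamycin groups overlapped. The log2 fold changes with rapamycin were -0.53 ± 0.07 with the Luc siRNA and -0.56 ± 0.07 with the Crebl2 siRNA (edgeR adjusted p = 1.8e-05 and 7e-06), and with the siRNA they were 0.24 ± 0.07 in ethanol and 0.21 ± 0.07 in rapamycin (adjusted p = 0.012 and 0.036). The groups of these comparisons are shared in pairs, so the values are set side by side and not counted as separate evidence. Ndufab1 has a countable share of 88.4% and stood at 6.43 CPM per countable kilobase. Reads over its shared bases are missing, so the level of its RNA is uncertain. Ndufa5, an accessory subunit of the peripheral arm with the NRF1 letters shown above, stood at 8.85, 12.7 and 9.98 CPM in Luc ethanol, 6.43, 7.36 and 6.78 in Luc rapamycin, 13.97, 12.3 and 15.1 in Crebl2 ethanol and 8.53, 11.8 and 9.28 in Crebl2 rapamycin. The countable share of Ndufa5 is 64.0%. Its fold changes were less precise, -0.62 ± 0.14 and -0.49 ± 0.14 for rapamycin (edgeR adjusted p = 0.0024 and 0.0085) and 0.39 ± 0.14 and 0.53 ± 0.14 for the siRNA (adjusted p = 0.031 and 0.01). Luc ethanol and Crebl2 ethanol overlapped, and that siRNA call was lost on leaving out replicate 1 (0.28) or 3 (0.36) of Luc ethanol, replicate 1 (0.39) or 3 (0.33) of Crebl2 ethanol, or replicate 3 of Luc rapamycin or of Crebl2 rapamycin (0.37 each).

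Ndufs6 and Ndufs4, accessory subunits near the NADH-oxidising end of the complex, fell with rapamycin too. Ndufs6 stood at 94.9, 94.0 and 90.2 CPM in Luc ethanol, 69.9, 75.6 and 67.5 in Luc rapamycin, 105, 94.1 and 113 in Crebl2 ethanol and 83.9, 93.8 and 88.0 in Crebl2 rapamycin. Luc rapamycin lay below the other groups without overlap, and the 2 ethanol groups overlapped. Its log2 fold change with rapamycin was -0.39 ± 0.07 with the Luc siRNA and -0.23 ± 0.06 with the Crebl2 siRNA, and the siRNA gave 0.16 ± 0.06 in ethanol, not called, and 0.32 ± 0.07 in rapamycin (edgeR adjusted p = 0.00016, 0.0074, 0.059 and 0.0014). For Ndufs4 the rapamycin values were -0.31 ± 0.05 and -0.18 ± 0.05, both called by edgeR.

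Ndufa6, an accessory subunit that binds the acyl carrier protein, rose with rapamycin while Ndufab1 fell. Its levels were 189, 175 and 179.9 CPM in Luc ethanol, 212, 228 and 204 in Luc rapamycin, 182, 174 and 200 in Crebl2 ethanol and 237, 249.6 and 251 in Crebl2 rapamycin. Each rapamycin group lay above its ethanol group without overlap, with log2 fold changes of 0.24 ± 0.06 and 0.41 ± 0.06 (edgeR adjusted p = 0.0027 and 2.5e-05). Ndufa1, a small X-linked subunit of the membrane arm, stood at 91.3, 87.8 and 89.0 CPM in Luc ethanol, 89.0, 95.5 and 93.1 in Luc rapamycin, 74.8, 59.3 and 82.7 in Crebl2 ethanol and 90.9, 96.1 and 90.5 in Crebl2 rapamycin. Only Crebl2 ethanol was low, and it was also the group with the widest spread. The log2 fold change was -0.30 ± 0.08 for the siRNA in ethanol and 0.35 ± 0.08 for rapamycin with the Crebl2 siRNA (edgeR adjusted p = 0.0093 and 0.0026), comparisons that share the Crebl2 ethanol libraries.

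Ndufb2, an accessory subunit of the membrane arm with the response element shown above, was lowest where siRNA and rapamycin were combined. It stood at 9.64, 9.04 and 8.80 CPM in Luc ethanol, 7.32, 5.27 and 5.86 in Luc rapamycin, 5.18, 5.58 and 5.20 in Crebl2 ethanol and 3.21, 2.81 and 3.80 in Crebl2 rapamycin. Luc ethanol lay above all other groups and Crebl2 rapamycin below them, and Luc rapamycin and Crebl2 ethanol overlapped. The log2 fold changes were -0.79 ± 0.12 and -0.91 ± 0.13 for the siRNA and -0.58 ± 0.12 and -0.70 ± 0.14 for rapamycin, with edgeR adjusted p of 0.00014, 9.1e-05, 0.0014 and 0.00051. Its counted level was low, at 1.52 CPM per countable kilobase against 208 for Ndufb10. Ndufb2 has 2 listed transcripts and a countable share of 89.7% of 4375 exonic bases. Reads over the bases that both transcripts share are missing, so the level of its RNA is uncertain. Ndufv3, an accessory subunit beside the NADH-binding flavoprotein, was called for the siRNA in ethanol and in rapamycin: it stood at 29.4, 26.9 and 28.0 CPM in Luc ethanol, 28.9, 31.1 and 29.2 in Luc rapamycin, 22.4, 22.7 and 23.6 in Crebl2 ethanol and 21.6, 25.0 and 23.1 in Crebl2 rapamycin, with siRNA log2 fold changes of -0.30 ± 0.06 and -0.36 ± 0.06 (edgeR adjusted p = 0.0018 and 0.00049) and rapamycin values of 0.08 ± 0.06 and 0.02 ± 0.06 that were not called. Ndufb3 fell with the siRNA in ethanol by 0.17 ± 0.05 and in rapamycin by 0.17 ± 0.05 on the log2 scale. The second call was lost on leaving out replicate 1 (-0.13) or 2 (-0.12) of Luc rapamycin, or replicate 1 (-0.11) or 3 (-0.12) of Crebl2 rapamycin, and with no filter (-0.14).

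**Figure D3:**
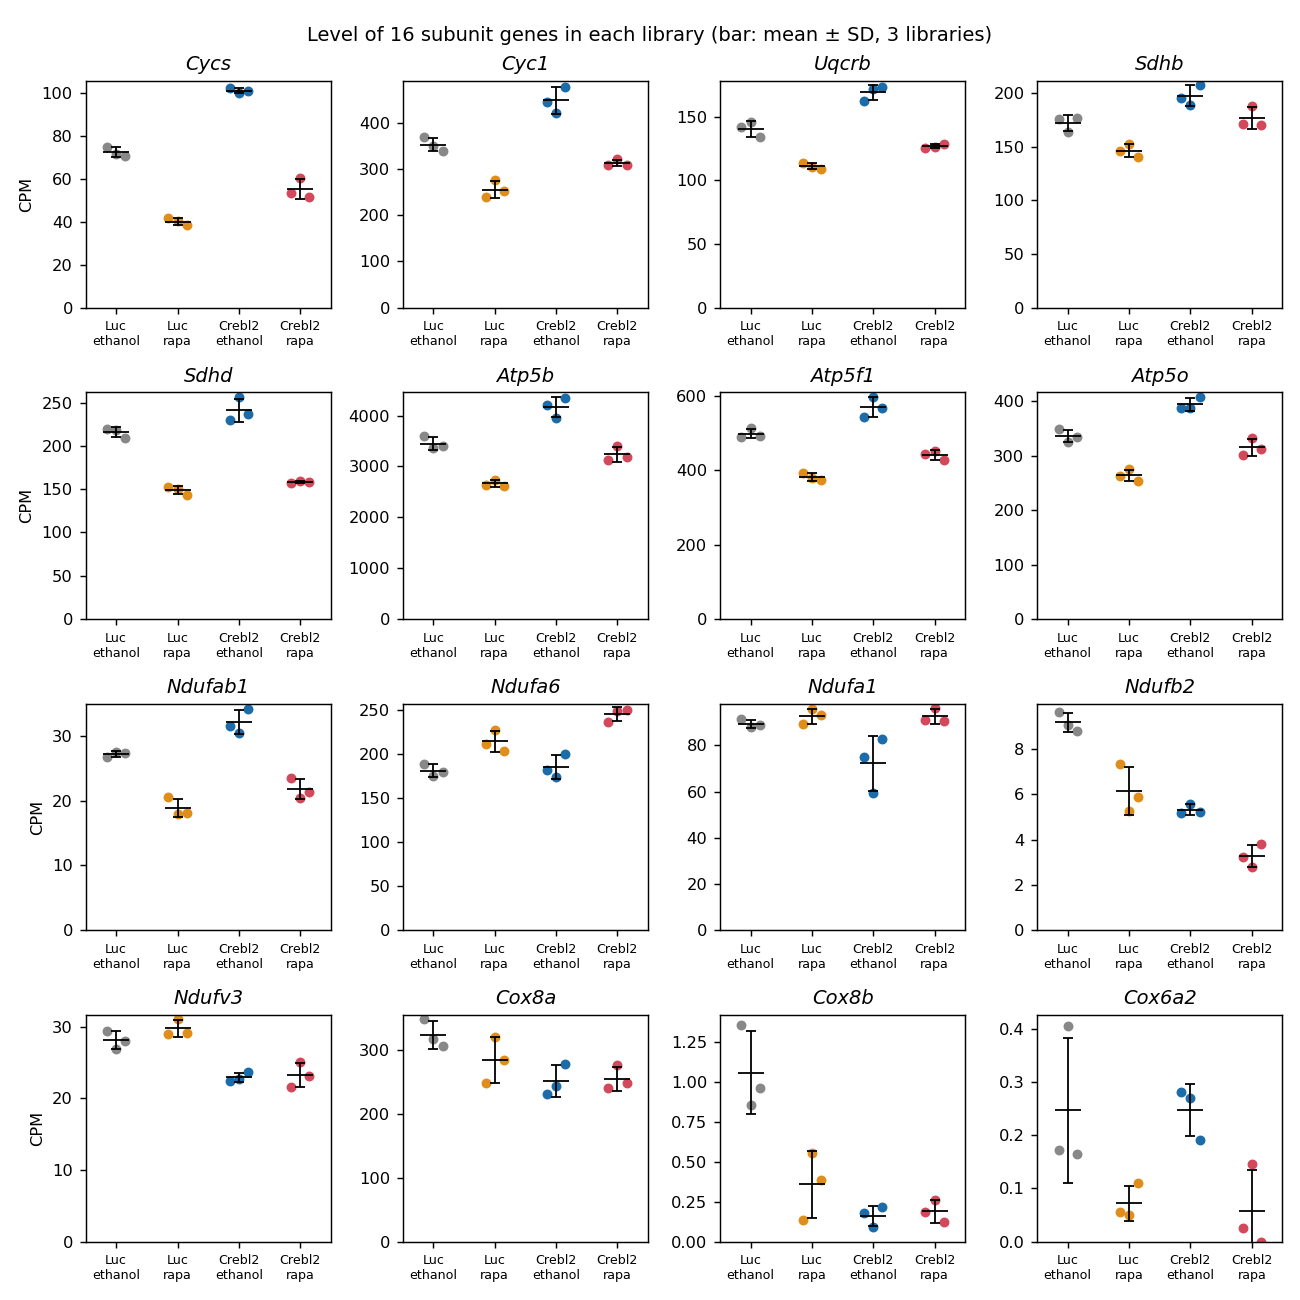
Levels in CPM (vertical axes, from 0) of 16 subunit genes in each of the 12 libraries by group (horizontal axes), with bars for the mean ± SD of 3 libraries. Cycs, Cyc1, Uqcrb, Atp5b, Atp5f1 and Atp5o stand highest in Crebl2 ethanol and lowest in Luc rapamycin, while Ndufa6 stands highest in Crebl2 rapamycin and Cox8b in Luc ethanol.

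Complex II, succinate dehydrogenase, which also works in the citric acid cycle, had all 4 genes lowered by rapamycin with either siRNA, where 21.6% and 25.6% of all genes fell. Sdhd, a membrane anchor subunit with NRF1 letters upstream, changed most. It stood at 219, 218 and 209.5 CPM in Luc ethanol, 153, 150.5 and 144 in Luc rapamycin, 229.6, 256 and 237 in Crebl2 ethanol and 158, 159.9 and 158 in Crebl2 rapamycin. The 4 groups did not overlap, and both rapamycin groups lay below both ethanol groups, with log2 fold changes of -0.53 ± 0.05 and -0.60 ± 0.05 (edgeR adjusted p = 2e-07 and 4e-08). The siRNA raised it by 0.16 ± 0.05 in ethanol (adjusted p = 0.013) and its value in rapamycin, 0.09 ± 0.05, was not called. Sdhb, the iron-sulfur subunit, stood at 176, 164 and 177 CPM in Luc ethanol, 146, 152 and 140.4 in Luc rapamycin, 196, 189 and 208 in Crebl2 ethanol and 171, 188 and 170.5 in Crebl2 rapamycin. The siRNA groups lay above their Luc counterparts without overlap, with log2 fold changes of 0.20 ± 0.05 and 0.27 ± 0.05 (edgeR adjusted p = 0.0085 and 0.0012). Rapamycin lowered Sdhb by 0.24 ± 0.05 and 0.16 ± 0.05 on the log2 scale. Sdha, the flavoprotein, and Sdhc, the other anchor, fell by 0.16 ± 0.04 and 0.18 ± 0.06 with rapamycin and the Luc siRNA, and neither was called for the siRNA.

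Complex III, which passes electrons from ubiquinol to cytochrome c, had 7 of 9 tested members lowered by rapamycin with the Luc siRNA and 4 with the Crebl2 siRNA. These are 77.8% and 44.4%, against 21.6% and 25.6% of all genes. The siRNA raised 4 in ethanol and 5 in rapamycin, 44.4% and 55.6% against 21.4% and 16.3%. Uqcr10 and Uqcrfs1 had siRNA values below 0 that were not called, -0.08 ± 0.08 and -0.10 ± 0.06 in ethanol. Cyc1, cytochrome c1, which hands electrons to cytochrome c, stood at 369, 349.5 and 339.9 CPM in Luc ethanol, 239, 275 and 252 in Luc rapamycin, 445, 422 and 478 in Crebl2 ethanol and 309, 321 and 308 in Crebl2 rapamycin. The 4 groups did not overlap, Crebl2 ethanol being highest, then Luc ethanol, Crebl2 rapamycin and Luc rapamycin. The siRNA log2 fold changes were 0.35 ± 0.06 and 0.29 ± 0.06 (edgeR adjusted p = 0.00023 and 0.0011) and the rapamycin ones -0.47 ± 0.06 and -0.52 ± 0.06 (adjusted p = 9.5e-06 and 2.4e-06).

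Uqcrb, a small subunit at the ubiquinone site, ordered the groups in the same way. It stood at 142, 146 and 134 CPM in Luc ethanol, 114, 110.4 and 109 in Luc rapamycin, 162, 172 and 173 in Crebl2 ethanol and 125, 126 and 128 in Crebl2 rapamycin. Its siRNA log2 fold changes were 0.27 ± 0.04 and 0.19 ± 0.04 and its rapamycin ones -0.34 ± 0.04 and -0.42 ± 0.04, all called by edgeR, although 43.2% of its 50-base words also occur in 4 other genes. The core protein genes parted: Uqcrc1 was called in all 4 comparisons, at 0.18 ± 0.06 and 0.19 ± 0.06 for the siRNA and -0.19 ± 0.06 and -0.17 ± 0.06 for rapamycin. Uqcrc2 rose with the siRNA, 0.14 ± 0.04 and 0.14 ± 0.04, and had values of 0.01 ± 0.04 and 0.01 ± 0.04 with rapamycin, not called. Uqcrh, the acidic hinge protein, was the complex III member that rose with rapamycin and the Crebl2 siRNA, by 0.21 ± 0.06 (edgeR adjusted p = 0.0087), at a countable share of 26.5%.

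Cycs, cytochrome c, the mobile carrier between complexes III and IV, had the smallest p of the members in the 2 rapamycin comparisons and in both siRNA comparisons. It stood at 75.0, 71.6 and 70.6 CPM in Luc ethanol, 41.5, 40.1 and 38.4 in Luc rapamycin, 102, 100 and 101 in Crebl2 ethanol and 53.4, 60.4 and 51.7 in Crebl2 rapamycin. No 2 groups overlapped: Crebl2 ethanol was highest, then Luc ethanol, Crebl2 rapamycin and Luc rapamycin. The siRNA raised it by 0.48 ± 0.06 in ethanol and 0.46 ± 0.06 in rapamycin, and rapamycin lowered it by 0.86 ± 0.06 with the Luc siRNA and 0.87 ± 0.06 with the Crebl2 siRNA on the log2 scale. The edgeR adjusted p values were 6.4e-06, 1.6e-05, 9.3e-09 and 4.4e-09. Per countable kilobase, Cycs stood at 21.5 CPM over all libraries against 225 for Cyc1, and 28.2% of its 50-base words occur in 43 other genes, which leaves its counts uncertain.

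Complex IV, cytochrome c oxidase, the terminal enzyme that reduces oxygen, had 7 of 12 tested members lowered by rapamycin with the Luc siRNA and 4 with the Crebl2 siRNA. These are 58.3% and 33.3%, against 21.6% and 25.6% of all genes, the second of them near its background. The siRNA lowered 2 in ethanol (Cox8a and Cox8b) and raised 3 in rapamycin (Cox5b, Cox6a1 and Cox7c). Those are 16.7% and 25%, against 17% and 16.3% of all genes, so the count in ethanol lay near its background. Cox7a2, the widely expressed form of subunit VIIa, stood at 245, 232 and 233 CPM in Luc ethanol, 187, 195 and 188 in Luc rapamycin, 240.4, 225 and 251 in Crebl2 ethanol and 197, 221 and 206 in Crebl2 rapamycin. Rapamycin libraries lay below ethanol libraries with the same siRNA, with log2 fold changes of -0.32 ± 0.05 and -0.20 ± 0.05 (edgeR adjusted p = 0.00014 and 0.0052). The siRNA value of Cox7a2 in rapamycin, 0.13 ± 0.05, was not called, and it passed without replicate 1 (0.20) or 3 (0.18) of Crebl2 rapamycin, replicate 2 of Luc rapamycin (0.19) or of Crebl2 ethanol (0.13), with DESeq2, RLE scaling or no filter (0.16 each), and with the compared groups alone (0.14). Cox7b had -0.24 ± 0.05 and -0.18 ± 0.05. Both calls with the Crebl2 siRNA were lost without replicate 1 (-0.13 for Cox7a2, -0.12 for Cox7b) or replicate 3 (-0.16 and -0.12) of Crebl2 rapamycin. Cox6a1 fell by 0.26 ± 0.07 with the Luc siRNA and had -0.09 ± 0.07 with the Crebl2 siRNA, not called, and the siRNA in rapamycin raised it by 0.23 ± 0.07 (edgeR adjusted p = 0.017).

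Isoform genes of complex IV differed in level by orders of magnitude. Per countable kilobase, Cox8a, the ubiquitous form of subunit VIII, stood at 507 CPM and Cox8b, the form of heart and skeletal muscle, at 1.23. Cox6a1 stood at 746 and the muscle form Cox6a2 at 0.229, and Cox7b at 269.5 and Cox7b2 at 0.693. All of these have a countable share of at least 90%. Cox8c, also fully countable, had at most 1 read in a library. The muscle form Cox7a1 had at most 3 reads at a countable share of 35.9%, which leaves its level uncertain. Cox6b1, the general form of subunit VIb, was not called in the 4 comparisons, with log2 fold changes of 0.14 ± 0.08 and 0.16 ± 0.08 for the siRNA and -0.10 ± 0.08 and -0.08 ± 0.08 for rapamycin. The siRNA values passed in ethanol without replicate 2 of Crebl2 ethanol (0.22), and in rapamycin without replicate 1 of Crebl2 rapamycin (0.26) or with no filter (0.19).

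Cox8b had the largest single log2 fold change of any tested member over the 4 comparisons together, with the siRNA in ethanol. It stood at 1.35, 0.856 and 0.962 CPM in Luc ethanol, 0.139, 0.554 and 0.387 in Luc rapamycin, 0.178, 0.0900 and 0.216 in Crebl2 ethanol and 0.186, 0.261 and 0.122 in Crebl2 rapamycin, a mean of 17.2 reads a library. Luc ethanol lay above every other group without overlap, and the other 3 groups overlapped. The log2 fold change was -2.65 ± 0.40 for the siRNA in ethanol and -1.53 ± 0.35 for rapamycin with the Luc siRNA (edgeR adjusted p = 9.9e-05 and 0.0024), which share Luc ethanol. The comparisons within rapamycin and within the Crebl2 siRNA were not called, at -0.93 ± 0.48 and 0.20 ± 0.55, and the former passed without replicate 1 of Luc rapamycin (-1.27). The summed differentiating muscle markers given above were likewise highest in Luc ethanol, and of the 7 tested 7 fell in each of these 2 comparisons. Their part in the Cox8b result was not tested. Cox6a2 stood at 0.172, 0.404 and 0.165 CPM in Luc ethanol, 0.0555, 0.0504 and 0.111 in Luc rapamycin, 0.281, 0.270 and 0.192 in Crebl2 ethanol and 0.0266, 0.145 and 0 in Crebl2 rapamycin, at most 17 reads in any library. Its rapamycin log2 fold changes, -1.76 ± 0.64 and -2.04 ± 0.69, had edgeR adjusted p of 0.038 and 0.024, and the call with the Luc siRNA was lost with DESeq2 (-1.79) or without replicate 1 of Luc rapamycin (-1.65), and that with the Crebl2 siRNA without replicate 2 of Crebl2 ethanol (-1.98) or 3 of Crebl2 rapamycin (-1.49). Cox7b2, called for rapamycin with the Luc siRNA at -1.06 ± 0.38 (adjusted p = 0.035), lost that call with DESeq2 (-1.06), and without replicate 1 (-0.82) or 2 (-1.02) of Luc ethanol or replicate 1 (-1.11) or 2 (-0.88) of Luc rapamycin.

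Cox8a, at far higher counts than Cox8b, stood at 349, 317 and 307 CPM in Luc ethanol, 249, 320.3 and 284 in Luc rapamycin, 232, 244 and 279 in Crebl2 ethanol and 241, 277 and 248 in Crebl2 rapamycin. Luc ethanol and Crebl2 ethanol did not overlap, and the log2 fold change was -0.37 ± 0.09 (edgeR adjusted p = 0.0038). The siRNA gave -0.16 ± 0.09 in rapamycin and rapamycin gave -0.19 ± 0.09 with the Luc siRNA, neither of them called, and the latter passed without replicate 2 of Luc rapamycin (-0.31) or with no filter (-0.23). Cox7c, at 45.4, 39.0 and 40.6 CPM in Luc ethanol, 31.9, 40.4 and 33.6 in Luc rapamycin, 37.7, 33.3 and 43.4 in Crebl2 ethanol and 39.9, 55.0 and 44.6 in Crebl2 rapamycin, was raised by the siRNA in rapamycin by 0.40 ± 0.12 (edgeR adjusted p = 0.018), though its groups overlapped. That call was lost without replicate 2 of Crebl2 rapamycin (0.28), its highest library.

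Complex V, the ATP synthase, held the most abundant member and followed the order of Cyc1 and Cycs in several of its subunits. Of 13 tested genes the siRNA raised 4 and lowered 1 in ethanol and raised 5 in rapamycin, where 21.4% and 16.3% of all genes rose. The raised shares were 30.8% and 38.5%, and the lowered share in ethanol was 7.69%, against 17% of all genes. The lowered gene was Atp5mpl (-0.16 ± 0.05, edgeR adjusted p = 0.023). Rapamycin lowered 5 with either siRNA (38.5%, against 21.6% and 25.6% of all genes) and raised 1 with the Luc and 2 with the Crebl2 siRNA. The shares raised by rapamycin, 7.69% and 15.4%, lay below the 19.5% and 19.7% of all genes. Atp5b, the catalytic beta subunit of the F1 head, stood at 3590, 3361 and 3400 CPM in Luc ethanol, 2642, 2738 and 2619 in Luc rapamycin, 4201, 3956 and 4351 in Crebl2 ethanol and 3132, 3399 and 3178 in Crebl2 rapamycin. Crebl2 ethanol was highest and Luc rapamycin lowest, each clear of every other group, while Luc ethanol and Crebl2 rapamycin overlapped. Its siRNA log2 fold changes were 0.27 ± 0.05 and 0.28 ± 0.05 (edgeR adjusted p = 0.0003 and 0.0003), and the rapamycin ones -0.37 ± 0.05 and -0.37 ± 0.05 (adjusted p = 1.2e-05 and 1.1e-05). At 1764 CPM per countable kilobase it stood above every other fully countable member, Cox6a1 being next with 746.

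Atp5f1, subunit b of the peripheral stalk, stood at 489, 513 and 492 CPM in Luc ethanol, 393, 379.9 and 373 in Luc rapamycin, 544, 597 and 566 in Crebl2 ethanol and 442, 452 and 428 in Crebl2 rapamycin. Atp5o, the oligomycin sensitivity conferral protein that joins stalk and head, stood at 348, 326 and 334 CPM in Luc ethanol, 263, 275 and 254 in Luc rapamycin, 388, 388 and 409 in Crebl2 ethanol and 302, 332 and 312 in Crebl2 rapamycin. In each the siRNA groups lay above their Luc counterparts and the rapamycin groups below their ethanol counterparts. Rapamycin with the Luc siRNA lowered Atp5f1 by 0.38 ± 0.05 and Atp5o by 0.35 ± 0.05 on the log2 scale, and the siRNA in ethanol raised them by 0.19 ± 0.05 and 0.23 ± 0.05. Of their exonic bases, 79% and 80.4% belong to a single listed transcript when both strands are counted as one, and the strand setting of the counting is not given in the sources used here. Atp5e, the small epsilon subunit of the same head as Atp5b, had 0.06 ± 0.08 with rapamycin and the Luc siRNA and 0.24 ± 0.08 with the Crebl2 siRNA (edgeR adjusted p = 0.59 and 0.022). The second was lost without replicate 2 of Crebl2 ethanol (0.15) or replicate 2 of Crebl2 rapamycin (0.22).

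Atp5g2, a gene for the c subunit of the membrane ring, was the complex V gene that rose in every comparison. It stood at 131, 133 and 129.8 CPM in Luc ethanol, 151, 149 and 144 in Luc rapamycin, 143, 157 and 152 in Crebl2 ethanol and 159, 166 and 163 in Crebl2 rapamycin. Luc ethanol was lowest and Crebl2 rapamycin highest, and Luc rapamycin and Crebl2 ethanol overlapped. The siRNA gave 0.20 ± 0.04 and 0.14 ± 0.04 and rapamycin 0.17 ± 0.04 and 0.11 ± 0.04 (edgeR adjusted p = 0.0021, 0.024, 0.0044 and 0.045). These are uncertain, since 87.4% of its 50-base words occur in 2 other genes and its countable share is 39.7%. The rapamycin call with the Luc siRNA was lost with no filter (0.13) and without replicate 1 (0.13) or 2 (0.14) of Luc rapamycin, and the siRNA call in rapamycin without replicate 3 of that group (0.14). The rapamycin call with the Crebl2 siRNA was lost with no filter (0.13) and without any one Luc ethanol library (0.11 each), replicate 1 (0.07) or 3 (0.12) of Crebl2 ethanol or replicate 2 of Crebl2 rapamycin (0.12).

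The complexes were also read library by library. The measure was the median, over members with a countable share of at least 90% and a mean of at least 5 CPM, of the log2 ratio to the Luc ethanol mean. In Luc rapamycin it lay between -0.29 and -0.17 for complex II, -0.36 and -0.28 for complex III, -0.34 and -0.16 for complex IV and -0.34 and -0.27 for complex V, all below the Luc ethanol libraries. For complex I it lay between -0.12 and 0.01, which overlapped Luc ethanol (-0.04 to 0.05). In Crebl2 ethanol it lay above the Luc ethanol libraries for complexes II (0.09 to 0.14) and V (0.07 to 0.16), and touched or overlapped them for complexes III (0.07 to 0.14), IV (-0.04 to 0.14) and I (-0.06 to 0.12). Crebl2 rapamycin stood at -0.24 to -0.13 for complex II, -0.20 to -0.14 for III, -0.17 to -0.01 for IV, -0.15 to -0.02 for V and -0.08 to 0.09 for I. Over 41 such members the summed level was 12056 ± 386 CPM (SD, n = 3) in Luc ethanol and 10250 ± 378 in Luc rapamycin. It was 13141 ± 612 in Crebl2 ethanol and 11430 ± 542 in Crebl2 rapamycin. These CPM are scaled by TMM, so the sums are not plain shares of the counts. Atp5b was the member with the highest level. Complex V alone summed to 4878 ± 137 CPM (SD, n = 3), 3864 ± 88.7, 5705 ± 225 and 4568 ± 204 in these groups, and complex I to 2977 ± 109, 2885 ± 152, 3016 ± 193 and 3068 ± 164.

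**Figure D4:**
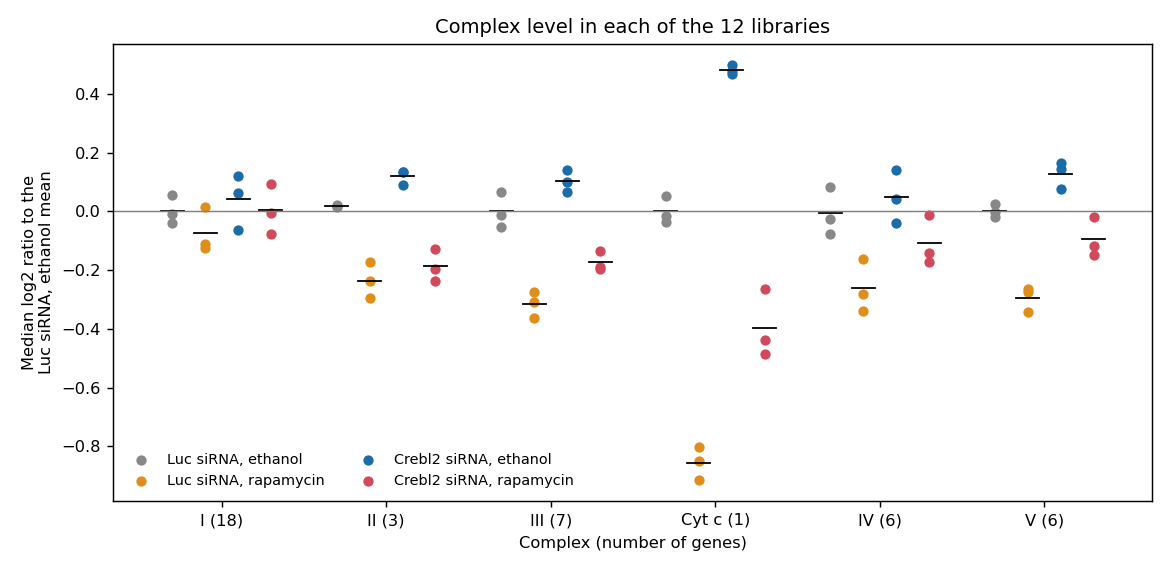
Points are the 12 libraries, placed by complex (horizontal axis, number of genes in brackets) and by the median log2 ratio of its genes to their Luc ethanol mean (vertical axis); black bars are group means. Complex I stays within -0.12 and 0.12, while the Luc rapamycin libraries lie at -0.16 or lower for complexes II to V and at -0.92 to -0.80 for cytochrome c.

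The siRNA effect could be read in ethanol and in rapamycin from libraries that do not overlap. Of the 15 members that rose in ethanol, 13 (86.7%) also rose in rapamycin, which is 56.5% of the 23 there; over all genes the shares were 59.2% and 77.8%. The 13 were Atp5b, Atp5f1, Atp5g2, Atp5o, Cyc1, Cycs, Ndufa5, Ndufab1, Ndufb10, Sdhb, Uqcrb, Uqcrc1 and Uqcrc2. Ndufb2, Ndufb3, Ndufv2 and Ndufv3 fell in both, and no member was called in opposite directions. Ndufv2 has a countable share of 53.7% and a mean of only 22 reads a library, which leaves its counts uncertain. For rapamycin, 25 members fell with either siRNA, 71.4% of the 35 with the Luc siRNA and 89.3% of the 28 with the Crebl2 siRNA, where all genes gave 84.8% and 71.6%. Ndufa6 and Atp5g2 rose with either siRNA. The difference between the effects was tested by the interaction, and edgeR called 0 of 73 members while it called 1.2% of all genes. The smallest adjusted p was 0.16, and 4 members had an unadjusted p under 0.05: Cox7c (interaction log2 fold change 0.52 ± 0.17, adjusted p = 0.16), Cox8b, Ndufa1 and Uqcrq. DESeq2 called 1, Cox7c at 0.55 (adjusted p = 0.032), and leaving out replicate 2 of Luc rapamycin in edgeR also gave Cox7c alone. With no count filter edgeR called Cox7c at 0.58, Ndufa1 at 0.36 and Cox8a at 0.27 (edgeR adjusted p = 1.5e-07, 0.0011 and 0.037). A missed threshold does not show that the effects were alike: for Cox8b the interaction was 1.72 ± 0.67 and for Uqcrq 0.72 ± 0.30. Uqcrq has a countable share of 77.8% and a mean of 38.6 reads a library. Cycs and Atp5b had values near 0 with a small SE, -0.02 ± 0.08 and 0.01 ± 0.07.

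**Figure D5:**
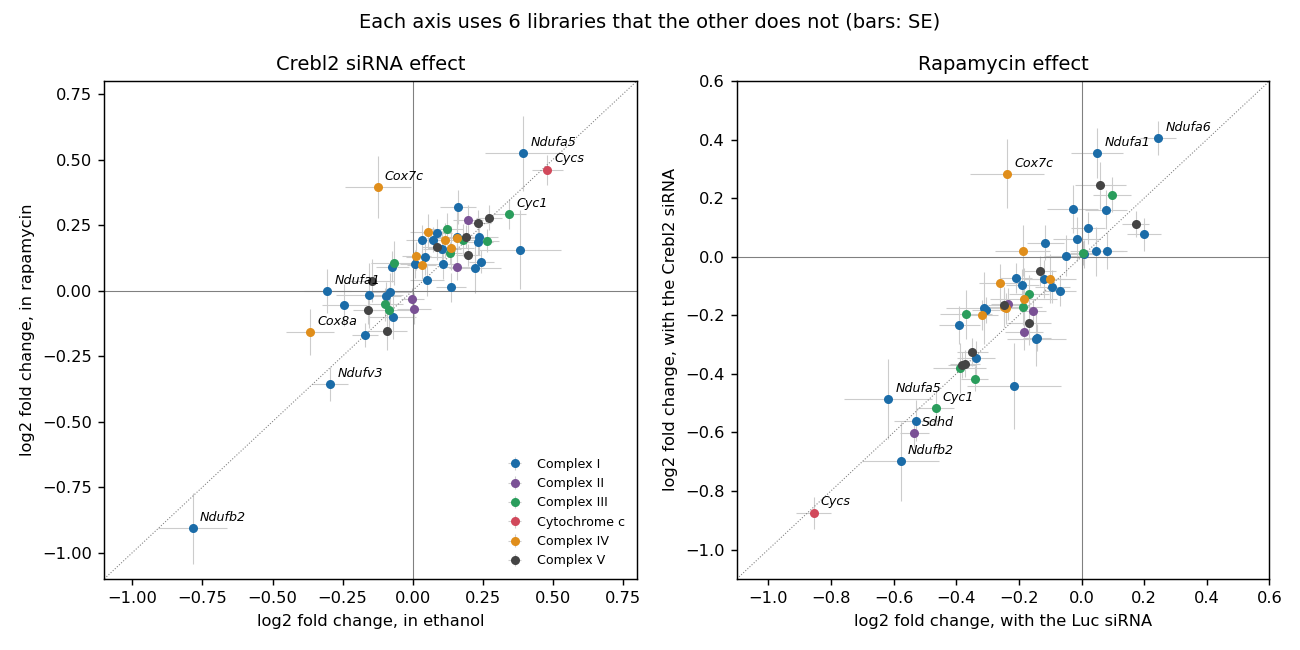
Log2 fold changes of the 56 tested members with a mean of at least 5 CPM, in the left panel for the Crebl2 siRNA in ethanol (horizontal) against rapamycin (vertical), in the right panel for rapamycin with the Luc siRNA (horizontal) against the Crebl2 siRNA (vertical), with SE bars and a dotted line of equal change. Each axis uses 6 libraries that the other does not. Cycs lies near the line in both panels, at 0.48 and 0.46 and at -0.86 and -0.87, and Cox7c lies above it in both.

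Assembly factors, the proteins that build the complexes without staying in them, were read from a list of 50 genes, 39 of them tested. The siRNA raised 11 and lowered 9 in ethanol and raised 6 and lowered 6 in rapamycin, and rapamycin lowered 13 with either siRNA and raised 4 with the Luc and 7 with the Crebl2 siRNA. As shares, the siRNA's 28.2% raised and 23.1% lowered in ethanol compare with 21.4% and 17% of all genes. Its 15.4% each in rapamycin compare with 16.3% and 16.8%. The 33.3% lowered by rapamycin with either siRNA compare with 21.6% and 25.6%. Rapamycin raised 10.3% with the Luc and 17.9% with the Crebl2 siRNA, below the 19.5% and 19.7% of all genes. Cox15, which takes part in making heme A for complex IV, rose with the siRNA more than any subunit, by 0.84 ± 0.04 in ethanol and 0.91 ± 0.05 in rapamycin (edgeR adjusted p = 2.7e-09 and 1.2e-09). Its levels were 45.3, 44.8 and 45.8 CPM in Luc ethanol, 40.3, 41.8 and 40.3 in Luc rapamycin, 85.4, 78.2 and 80.1 in Crebl2 ethanol and 75.8, 78.5 and 76.3 in Crebl2 rapamycin, and the siRNA groups stood clear of the Luc groups. The rapamycin values were -0.15 ± 0.05 with the Luc siRNA (adjusted p = 0.015) and -0.08 ± 0.04 with the Crebl2 siRNA, not called. Ndufaf4, an assembly factor of complex I, rose by 0.48 ± 0.07 with the siRNA in ethanol and fell by 0.48 ± 0.07 and 0.69 ± 0.07 with rapamycin. Coa7, a factor of complex IV, fell with rapamycin by 0.47 ± 0.06 with the Luc siRNA, and Ndufaf5 fell by 0.46 ± 0.05 with the Crebl2 siRNA. Surf1, a factor of complex IV, went the other way, rising by 0.37 ± 0.05 and 0.45 ± 0.05. Timmdc1 and Tmem126b, both of complex I assembly, moved apart with the siRNA in rapamycin, at 0.26 ± 0.04 and -0.35 ± 0.06.

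Regulators of mitochondrial genes were read from a list of 20, with 19 tested. The siRNA raised 6 in ethanol and 4 in rapamycin. Rapamycin lowered 4 and raised 2 with the Luc siRNA and lowered 5 and raised 4 with the Crebl2 siRNA. The lowered shares, 21.1% and 26.3%, are about those of all genes, 21.6% and 25.6%. The shares raised by rapamycin, 10.5% and 21.1%, compare with 19.5% and 19.7% of all genes. The siRNA's raised shares, 31.6% and 21.1%, compare with 21.4% and 16.3%. Ppargc1a, the coactivator PGC-1alpha that drives mitochondrial biogenesis, stood at 0.492, 0.666 and 0.715 CPM in Luc ethanol, 0.111, 0.176 and 0.221 in Luc rapamycin, 1.43, 0.900 and 1.18 in Crebl2 ethanol and 0.398, 0.435 and 0.395 in Crebl2 rapamycin, a mean of 22.6 reads a library. The countable share of Ppargc1a is 57.4%. Its groups followed the order seen for Cycs, with siRNA log2 fold changes of 0.91 ± 0.23 and 1.25 ± 0.34 (edgeR adjusted p = 0.0047 and 0.011) and rapamycin ones of -1.85 ± 0.31 and -1.51 ± 0.25 (adjusted p = 0.00019 and 0.00011). Tfam, which packages and transcribes mitochondrial DNA, fell with rapamycin by 0.47 ± 0.06 and 0.54 ± 0.06, and rose with the siRNA in ethanol by 0.17 ± 0.06. Twnk, the mitochondrial DNA helicase, rose in all 4 comparisons, by 0.34 ± 0.04 and 0.27 ± 0.04 with the siRNA and 0.24 ± 0.04 and 0.18 ± 0.04 with rapamycin. Tfb1m and Esrra rose with the siRNA in rapamycin, by 0.42 ± 0.07 and 0.31 ± 0.08, Gabpa with the siRNA in ethanol by 0.24 ± 0.06, and Mterf3 fell with rapamycin and the Crebl2 siRNA by 0.28 ± 0.07. Nrf1 itself had -0.16 ± 0.25 with rapamycin and the Luc siRNA, not called, at a countable share of 22.4%.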

How the data were processed

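Reads were counted by the authors per transcript, and the deposited values are whole-number counts, 1 file a library; Trim Galore, TopHat, HTSeq and the builds GRCm38 and mm9 are named without versions, per the submitters' processing notes. How HTSeq treated strand and shared reads is not given in the sources used here. Of 58611 listed transcripts, 58264 matched GENCODE M21 symbols, and the 347 others held 0.038% of reads. Counts were summed per gene. Of protein-coding transcripts without a base of their own, 99.3% had no read, against 32.0% of the others. edgeR 4.0.16 (R 4.3.3) fitted all 12 libraries with TMM scaling, its expression filter at a count of 10, a mean per group and a quasi-likelihood test, with Benjamini-Hochberg adjustment over 13247 genes; the method was tested on simulated data. The SE was taken as the size of the log2 fold change over √F. DESeq2 1.42.0, other scalings and filters, a replicate block and leaving out each library were the alternatives. Totals per library were 33404087 to 42891015, and the ± after a level is the SD of 3 libraries. Members, lists and the rule for named genes were chosen with earlier results of these data known. The rule took, per pairwise comparison, the 4 largest called rises and falls at a mean of at least 5 CPM, the member of smallest p in each complex, the tissue isoforms, and the 3 called genes of smallest p in each list. Ndufs3, Ndufs4, Ndufs8, Ndufa11, Ndufb10, Sdha, Sdhc, Uqcrc1, Uqcrc2, Uqcr10, Uqcrfs1, Cox5b, Atp5o, Atp5mpl and Nrf1 fall outside it and were chosen after their values were seen. Promoter windows came from RefSeq, GRCm38.p6. No protein sequence was used here.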

Additional observations from a re-analysis of the deposited data

Results flagged for a closer look

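The difference between the siRNA effects in rapamycin and in ethanol, tested as the interaction in edgeR, passed for 3 marker genes of muscle that are not subunits. Cdh15, a cadherin of myoblasts, had an interaction log2 fold change of 0.41, Acta1, skeletal muscle actin, of 1.13, and Actc1, cardiac actin, of 1.27. They were 1 of 5 tested myoblast markers and 2 of 7 tested markers of differentiating muscle, where 1.2% of all genes were called. All 7 of the latter had siRNA values below 0 in ethanol and in rapamycin. The positive interactions of Acta1 and Actc1 thus mean a smaller fall in rapamycin.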

How the results depend on the processing

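Replicate numbers did not pair the libraries, with same-number correlations of -0.292 to 0.124. With a replicate block the siRNA raised 14 and lowered 10 members in ethanol and raised 22 and lowered 4 in rapamycin, rapamycin raised 3 and lowered 32 with the Luc siRNA and raised 4 and lowered 26 with the Crebl2 siRNA, and the interaction called 0; the block also ended the rapamycin calls of Cox7b2 with Luc (-1.05, adjusted p = 0.058 in edgeR) and Atp5g2 with Crebl2 (0.11, adjusted p = 0.062). No named result reversed. Counted over the settings, 1734 of these kept their side of the threshold, 42 lost it and 15 gained it. Of the other results compared over the settings, 586 stayed the same and 50 moved. Members at 90% countable or more gave 6 and 1 lowered by the siRNA in ethanol and rapamycin, 3 raised by rapamycin with the Crebl2 siRNA, and medians of 0.002 (I, rapamycin with Crebl2), 0.14 and 0.077 (II, siRNA in ethanol and rapamycin), 0.13 (III, siRNA in rapamycin), 0.12 (V, siRNA in ethanol), -0.30 and -0.25 (V, rapamycin with Luc and Crebl2). Rapamycin with the Crebl2 siRNA raised 8 under RLE scaling, a minimum count of 50, the compared groups alone, or protein-coding nuclear genes alone. Without a filter the siRNA in rapamycin lowered 2, the interaction called 3 and V had -0.24 for rapamycin with Luc; DESeq2's interaction called 1. At a minimum of 50, III had -0.25 for rapamycin with Luc and V 0.12 for the siRNA in ethanol. Leaving out 1 library gave 2 to 5 lowered by the siRNA in rapamycin, 0 to 1 interaction calls, 15 to 30 lowered and 3 to 10 raised by rapamycin with Crebl2, and 1 to 3 raised with Luc. Medians then ran from 0.029 to 0.077 (II, siRNA in rapamycin), -0.25 to -0.15 and -0.28 to -0.20 (II, rapamycin with Crebl2 and Luc), 0.06 to 0.13 (III, siRNA in ethanol), -0.23 to -0.11 (III, rapamycin with Crebl2), -0.33 to -0.21 (IV, rapamycin with Luc), 0.10 to 0.19 and 0.12 to 0.22 (V, siRNA in ethanol and rapamycin), and -0.19 to -0.093 and -0.24 to -0.15 (V, rapamycin with Crebl2 and Luc). The cause of these shifts was not tested. Members under 50 reads a library limit small changes.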
